A study of Mus musculus with 6 samples.

Results

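The genes described here are 10 linked to macrophages in general or to the macrophages resident in tissues. The 10 are Csf1, Csf1r, Cd68, Mrc1, Cd163, Ly86, Fcgr1, Fcgr3, Cd14 and Marco. They were taken from the 24422 genes of the count tables by symbol alone. Poly-A RNA of whole kidney was sequenced from C57BL/6 mice labelled as postnatal day 60, kept on a diet with 220 ppm iron. The controls were 3 kidneys labelled wild type. The other 3 kidneys were Tfr1f/f;KspCre by genotype and TfR1KO;KspCre by title, and are called knockouts below. In these mice floxed exons of the transferrin receptor gene Tfrc are removed by a Cre recombinase under the Ksp-cadherin promoter, which is active in epithelium of the distal nephron. No group carried Cre alone, and the labels do not say whether the controls carried the floxed allele, so effects of Cre and of the deletion cannot be told apart. The comparison asks which macrophage transcripts differ in whole kidney when the deletion is directed at tubular epithelium.

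Macrophages live throughout the kidney interstitium, where they clear debris, take up iron-bearing proteins and sense microbial products. Their survival depends on CSF1R, a receptor tyrosine kinase with the ligands CSF1 and IL34, and their identity on the transcription factor PU.1, encoded by Spi1. The other genes encode the surface and lysosomal machinery of these cells: the lysosomal glycoprotein CD68, the mannose receptor (Mrc1), the haptoglobin-hemoglobin receptor CD163, the scavenger receptor MARCO, the lipopolysaccharide co-receptor CD14, the RP105 partner MD-1 (Ly86) and the activating Fc gamma receptors (Fcgr1, Fcgr3).

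Library totals ranged from 11501053 to 21001341 counts, and the smallest was knockout 3. On the first principal component of all tested genes (69.4% of the variance) the controls lay between -72.6 and -53.2, knockouts 2 and 3 at 88.6 and 82.1, and knockout 1 at 9.67. Control 2 alone carried Y-linked transcripts (3980 counts in 4 genes against 3 to 5 in the other libraries) with 52 counts of Xist against 10458 to 23845. Sex is not labelled. The share of the ribosomal transcript Rn45s was 2.59% in knockout 3 and 0.506% to 0.745% elsewhere. The counts of the targeted gene, Tfrc, did not separate the genotypes (log2 fold change -0.11, SE 0.62, adjusted p = 0.911, edgeR's quasi-likelihood test). Gene-level counts do not show the floxed exons by themselves. Transcripts of nephron epithelium were abundant in every library, with the megalin gene Lrp2 between 2392 and 3028 CPM in controls and at 898.7, 365.2 and 246.8 CPM in knockouts 1 to 3 (CPM are counts per 1e+06 counts of a library, normalised between libraries).

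Of the 10 macrophage genes, 8 rose in the knockouts and 0 fell, at an adjusted p under 0.05. They were Csf1, Cd68, Mrc1, Cd163, Ly86, Fcgr1, Fcgr3 and Cd14, with folds from 3.40 for Csf1 to 10.9 for Fcgr3. Csf1r did not pass the test, and Marco was left out by the filter on low counts. Over all 15171 genes tested, 10.6% rose and 6.64% fell, and in 23.8% all 3 knockouts lay above all 3 controls, as they did for the same 8 genes. All 9 macrophage genes tested held at least 11 counts in every library, so none of them passed the filter on low counts through the knockouts alone. In whole kidney, more macrophages, more RNA per macrophage and RNA from other cells cannot be told apart.

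**Figure D1:**
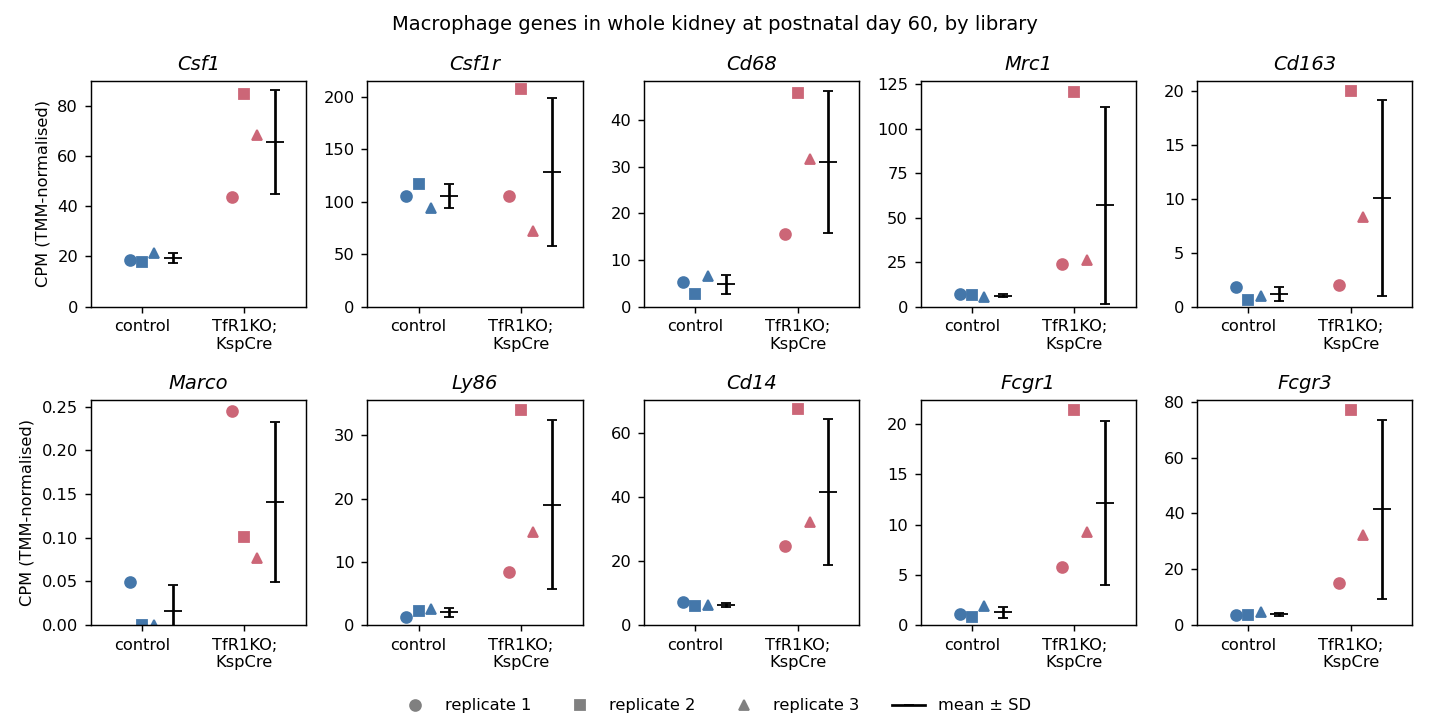
Each panel plots 1 macrophage gene in normalised CPM, with 1 point per library and the mean ± SD of 3 libraries per group beside the points; axes start at 0 and differ between panels, and bars that would pass below 0 are clipped. In every panel but Csf1r the 3 knockouts lie above the 3 controls, for Marco on 1 to 5 counts, and knockout 2 is the highest library in all panels except Marco.

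These calls depended on single libraries. With any single control left out, or without knockout 3, 0 of the 8 genes were called, although all 8 kept an unadjusted p under 0.05 in each of those fits. Without knockout 2 there were 2 calls, for Mrc1 and Cd14, and without knockout 1 all 8. The same loss came when Xist over Y-linked transcripts, as a log2 ratio, entered as a covariate. In that edgeR fit 0 of 8 were called and the lowest adjusted p was 0.111. Control 2 alone carried Y-linked transcripts, so this covariate mainly sets that library apart and is not a separate check. Over all genes the calls went from 2612 to 0 without any 1 control (4270 to 4823 genes at an unadjusted p under 0.05, edgeR), 73 without knockout 2 and 2 without knockout 3, and rose to 5332 without knockout 1.

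The ligand Csf1 (ENSMUSG00000014599; mm9 chromosome 3, 107543966 to 107563387, minus strand) was at 18.5, 17.9 and 21.4 CPM in controls 1 to 3 and at 43.4, 84.8 and 68.5 CPM in knockouts 1 to 3. Every knockout lay above every control. The group means were 19.3 ± 1.90 and 65.6 ± 20.8 CPM (SD, n = 3 each), a 3.40-fold rise (log2 fold change 1.77, SE 0.25, adjusted p = 0.0271, edgeR's quasi-likelihood test). Of all tested genes, 7.39% had a higher log2 fold change.

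The second ligand, Il34, which is made by epithelium and neurons as well as other cells, also rose. Its values were 15.3, 17.2 and 9.73 CPM in controls and 35.6, 38.9 and 80.1 CPM in knockouts (log2 fold change 1.87, SE 0.37, adjusted p = 0.0311, edgeR). Its highest library was knockout 3, whereas all of the 10 macrophage genes but Marco had theirs in knockout 2.

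The receptor Csf1r (ENSMUSG00000024621; mm9 chromosome 18, 61265226 to 61291803, plus strand) stood apart from its ligands. It was at 105.7, 117.3 and 94.0 CPM in controls and at 105.6, 207.7 and 72.1 CPM in knockouts, so that 1 knockout lay inside the control range, 1 above it and 1 below it. The means were 105.7 ± 11.6 and 128.4 ± 70.6 CPM (SD, n = 3 each; log2 fold change 0.28, SE 0.37, adjusted p = 0.601, edgeR). Without knockout 2 the sign turned, to a log2 fold change of -0.25. Of all tested genes, 33.9% had a higher log2 fold change.

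Csf1r was the most abundant of the 10 genes per exon length in the controls, at 20.2 CPM per kilobase of exon against at most 4.04 for the others. In the knockouts it was at 24.6 CPM per kilobase, next to Cd14 at 26.4, Cd68 at 24.7 and Fcgr3 at 23.8, and these levels differed by less than the SDs of the genes between libraries. Part of the Csf1r exon sequence is ambiguous without strand: 871 of its 5229 exon bases (16.7%) overlap Hmgxb3 on the opposite strand. Hmgxb3 was at 38.4 to 49.5 CPM over the 6 libraries, with a log2 fold change of -0.09 (SE 0.16, adjusted p = 0.694, edgeR).

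The myeloid regulators and signalling partners of CSF1R were mixed. Of 15 tested genes of this list, 8 rose and 1 fell, and the median log2 fold change was 1.03 against 0.02 over all tested genes. Without knockout 2 the list had 1 call. Spi1, the gene of PU.1, rose from 2.14, 2.23 and 3.84 CPM to 10.9, 22.5 and 14.6 CPM (log2 fold change 2.55, SE 0.38, adjusted p = 0.0277, edgeR). Runx1 and the adaptor Tyrobp (DAP12) had the highest log2 fold changes of the list, 2.99 and 2.92. Maf, a transcription factor of macrophages that is also made by tubular epithelium, was the gene that fell (log2 fold change -0.94, adjusted p = 0.0416). Cebpa was at -0.07 (adjusted p = 0.791).

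**Figure D2:**
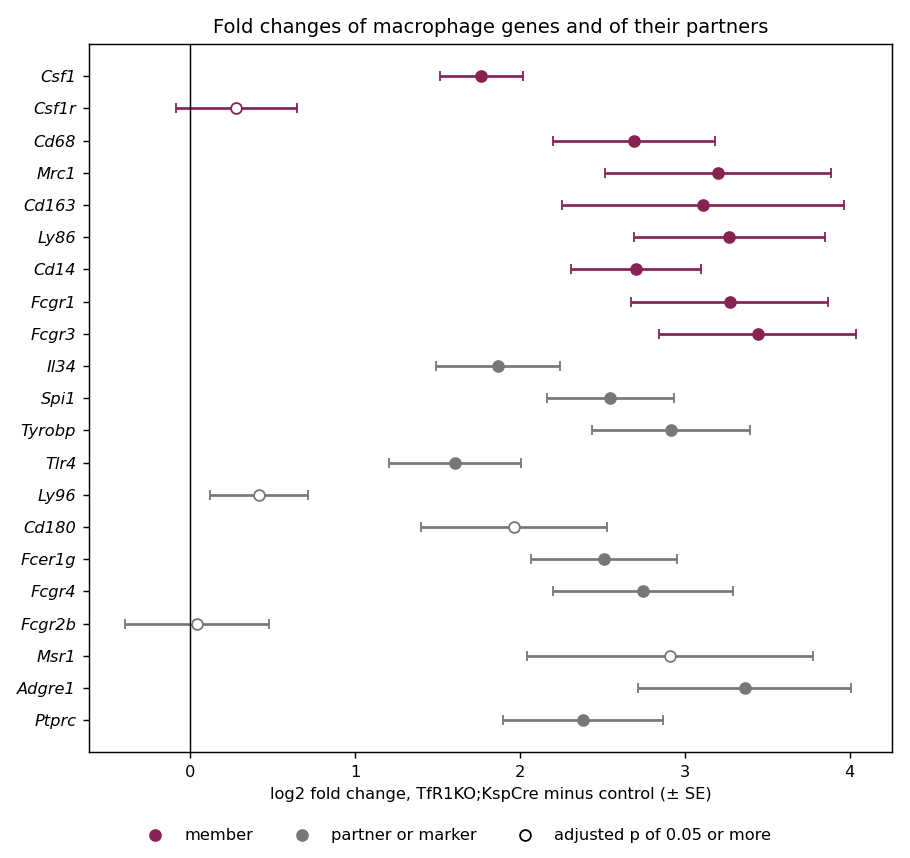
Points give the log2 fold change of knockouts over controls with its SE (edgeR, 3 libraries per group) for the 9 tested macrophage genes in purple and for 12 partner or marker genes in grey; open points did not pass an adjusted p of 0.05. Csf1r, Ly96 and Fcgr2b lie near 0, while the 8 macrophage genes called lie between 1.77 and 3.44.

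Cd68 (ENSMUSG00000018774; mm9 chromosome 11, 69477715 to 69479655, minus strand), the lysosomal glycoprotein used to stain macrophages, was at 5.27, 2.59 and 6.48 CPM in controls and at 15.5, 45.8 and 31.6 CPM in knockouts. The lowest knockout was above the highest control. The means were 4.78 ± 1.99 and 31.0 ± 15.2 CPM (SD, n = 3 each), a 6.47-fold rise (log2 fold change 2.69, SE 0.49, adjusted p = 0.0295, edgeR).

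Mrc1 (ENSMUSG00000026712; mm9 chromosome 2, 14151041 to 14253684, plus strand) encodes the mannose receptor CD206, an endocytic receptor of resident macrophages. Controls were at 7.02, 6.29 and 5.22 CPM, and knockouts at 23.7, 120.7 and 26.0 CPM. Knockouts 1 and 3 were close to each other, and knockout 2 was far above both. The rise was 9.19-fold (log2 fold change 3.20, SE 0.68, adjusted p = 0.0326, edgeR), with means of 6.18 ± 0.90 and 56.8 ± 55.4 CPM (SD, n = 3 each). Without knockout 2 the log2 fold change was 2.00. The microRNA gene Mir511 lies within Mrc1 on the same strand.

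Cd163 (ENSMUSG00000008845; mm9 chromosome 6, 124254669 to 124280545, plus strand) encodes the receptor that takes up hemoglobin bound to haptoglobin. By the ratio of the highest to the lowest knockout it had the widest spread of the genes called. Its levels were 1.84, 0.646 and 0.961 CPM in controls and 1.96, 19.9 and 8.27 CPM in knockouts. Knockout 1 lay just above control 1 (40 against 37 counts), and the highest knockout was 10.2 times the lowest. Its call was close to the threshold, with a log2 fold change of 3.11 (SE 0.86, adjusted p = 0.0496, edgeR). Without knockout 2 the log2 fold change was 2.12.

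Marco (ENSMUSG00000026390; mm9 chromosome 1, 122371115 to 122401661, minus strand), a class A scavenger receptor, was nearly absent from the libraries. It had 1, 0 and 0 counts in controls and 5, 2 and 1 counts in knockouts. Pooled, 1 of 59026482 counts and 8 of 48875172 counts gave a ratio of 9.66, with a 95% counting interval of 1.3 to 429 that covers counting error only and no spread between animals. Marco did not pass the filter on low counts, and it was not called in the fit without that filter.

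Scavenger and lectin receptors beyond these genes gave 7 rises and 0 falls among 16 tested (median log2 fold change 2.02; 1.21 with 0 calls without knockout 2). DESeq2's Wald test called 13 of them, and edgeR 12 without knockout 1 and 11 with library size alone. Clec4n (dectin-2) had the highest, from 0.149, 0.294 and 0.240 CPM to 2.90, 21.2 and 7.74 CPM (log2 fold change 5.52, SE 0.87, adjusted p = 0.0277, edgeR). Olr1, the receptor for oxidised low-density lipoprotein, followed at 4.21, on at most 2.06 CPM in any library. Clec4n (3, 5 and 4 control counts) and Olr1 (2, 0 and 1) passed the filter on low counts through the knockouts alone, and with at least 10 counts asked of every library the list had 5 calls. The macrophage scavenger receptor gene Msr1 was at 0.995, 0.647 and 1.98 CPM in controls and at 2.31, 19.8 and 5.13 CPM in knockouts and did not pass (log2 fold change 2.91, adjusted p = 0.0590). The lowest values were -1.90 for the fatty acid receptor Cd36 (adjusted p = 0.0659) and -1.50 for Stab2 of sinusoidal endothelium (adjusted p = 0.126), and neither passed.

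Ly86 (ENSMUSG00000021423; mm9 chromosome 13, 37437214 to 37510905, plus strand) encodes MD-1, the secreted partner of the Toll-like receptor homologue RP105. It was at 1.24, 2.23 and 2.46 CPM in controls and at 8.44, 34.0 and 14.7 CPM in knockouts, with no overlap. The means were 1.98 ± 0.65 and 19.1 ± 13.3 CPM (SD, n = 3 each), a 9.65-fold rise (log2 fold change 3.27, SE 0.58, adjusted p = 0.0290, edgeR; 2.54 without knockout 2).

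Cd180, the gene of RP105 itself, had 1.69, 1.65 and 1.74 CPM in controls and 3.88, 12.6 and 3.29 CPM in knockouts. The groups did not overlap, and the gene narrowly missed the threshold (log2 fold change 1.97, SE 0.56, adjusted p = 0.0543, edgeR).

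Cd14 (ENSMUSG00000051439; mm9 chromosome 18, 36884728 to 36886390, minus strand) was at 7.11, 5.82 and 6.12 CPM in controls and at 24.6, 67.5 and 32.3 CPM in knockouts. The controls were within a narrow range, and the lowest knockout was more than 3 times the highest control. The means were 6.35 ± 0.68 and 41.5 ± 22.9 CPM (SD, n = 3 each), a 6.52-fold rise (log2 fold change 2.71, SE 0.39, adjusted p = 0.0271, edgeR).

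CD14 hands lipopolysaccharide to TLR4 and its partner MD-2. Tlr4 rose less than Cd14, from 15.2, 12.0 and 10.1 CPM to 18.01, 54.8 and 40.8 CPM (log2 fold change 1.61, SE 0.40, adjusted p = 0.0414, edgeR); the difference between the 2 changes was not tested. Ly96, the gene of MD-2, was at 3.78, 4.23 and 4.32 CPM in controls and at 3.88, 6.93 and 5.67 CPM in knockouts, and the groups overlapped (log2 fold change 0.42, SE 0.30, adjusted p = 0.332). Over the whole list of Toll-like receptors and partners, 9 of 15 tested genes rose and 0 fell (median log2 fold change 1.74), with 3 calls by limma-voom and 0 without knockout 2. With at least 10 counts asked of every library, which leaves out Tlr6 and Ticam2, the list had 7 calls. Tlr13 and Tlr1 were highest, at 3.03 and 2.73, and the adaptor Ticam1 and the kinase Irak1 lowest, at -0.30 and -0.08, with neither passing the test.

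Both activating Fc gamma receptors among the 10 genes rose. Fcgr1 (ENSMUSG00000015947; mm9 chromosome 3, 96086832 to 96098179, minus strand) encodes the high-affinity receptor CD64. It was at 1.14, 0.764 and 1.86 CPM in controls and at 5.79, 21.4 and 9.27 CPM in knockouts, 9.66-fold higher (log2 fold change 3.27, SE 0.60, adjusted p = 0.0295, edgeR; 2.57 without knockout 2). Fcgr3 (ENSMUSG00000059498; mm9 chromosome 1, 172981300 to 172995066, minus strand) encodes the low-affinity receptor CD16. It was at 3.43, 3.53 and 4.50 CPM in controls and at 15.02, 77.1 and 32.3 CPM in knockouts, 10.9-fold higher (log2 fold change 3.44, SE 0.60, adjusted p = 0.0286, edgeR; 2.63 without knockout 2). In both genes the lowest knockout was above 3 times the highest control.

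The inhibitory receptor Fcgr2b did not follow. It was at 29.9, 45.3 and 48.4 CPM in controls and at 31.7, 73.0 and 22.4 CPM in knockouts, with overlapping groups (log2 fold change 0.04, SE 0.44, adjusted p = 0.949, edgeR). Like Csf1r, it had 1 knockout above the control range, knockout 2, and 1 below it, knockout 3. Fcgr2b is also made by kidney endothelium and B cells. Fcgr3 and Fcgr2b share sequence, judged by the longest coding transcript of each gene alone. By this measure 96.5% of the 100-base words of Fcgr3 occur in no other gene, and the rest occur in Fcgr2b. For the other 9 macrophage genes this share was 100%.

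The remaining Fc receptor genes included Fcgr4, whose product pairs like CD64 and CD16 with the signalling chain FcR gamma, and Fcer1g, the gene of that chain. Fcgr4 rose with a log2 fold change of 2.74 (SE 0.55, adjusted p = 0.0309, edgeR) and Fcer1g with 2.51 (SE 0.44, adjusted p = 0.0288). In all, 6 of 9 tested genes of the list rose and 0 fell (median log2 fold change 1.68), with 0 calls without knockout 2. The B cell receptor for IgE, Fcer2a, was at 2.37 and did not pass (adjusted p = 0.0720), and Fcgrt, the neonatal Fc receptor of epithelium, was lowest at -0.46 (adjusted p = 0.137).

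Genes made in macrophages often carry sites for PU.1 just upstream of their start, in place of a TATA box. The 250 bases before the RefSeq start (GRCm38.p6) were therefore searched on both strands for GAGGAA, the core of the PU.1 site, for TGACTCA, the AP-1 site, and for TATAAA. Of the 10 genes, 8 were searched: Csf1, Cd68, Mrc1, Cd163, Ly86, Fcgr1, Fcgr3 and Marco. GAGGAA was in 5 of the 8 (Cd68, Fcgr1, Fcgr3, Marco, Mrc1), against 23.3% of 32851 promoters. TGACTCA was in 1 of 8, Cd68, against 4.46%, and TATAAA in 0 of 8, against 12.4%. A match is a stretch of letters and not a measured site.

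The upstream bases of 4 of these genes, which rose and hold a match, are shown 5′ to 3′ on the strand of the gene and end at the base before the start. Capitals mark GAGGAA or TGACTCA, or their reverse complements TTCCTC and TGAGTCA. The coordinates are on GRCm38.p6: chr3:96293970-96294059, minus strand, for Fcgr1; chr1:171059404-171059493, minus strand, for Fcgr3; chr2:14229224-14229413, plus strand, for Mrc1; and chr11:69666171-69666330, minus strand, for Cd68.
Fcgr1: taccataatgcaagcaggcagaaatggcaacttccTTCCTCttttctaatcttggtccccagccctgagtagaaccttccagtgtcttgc
Fcgr3: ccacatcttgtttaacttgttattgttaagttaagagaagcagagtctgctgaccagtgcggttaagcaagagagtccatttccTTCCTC
Mrc1: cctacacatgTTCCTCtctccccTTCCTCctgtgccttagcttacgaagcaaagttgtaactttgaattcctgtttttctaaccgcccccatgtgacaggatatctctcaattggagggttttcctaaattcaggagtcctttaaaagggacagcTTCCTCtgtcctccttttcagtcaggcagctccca
Cd68: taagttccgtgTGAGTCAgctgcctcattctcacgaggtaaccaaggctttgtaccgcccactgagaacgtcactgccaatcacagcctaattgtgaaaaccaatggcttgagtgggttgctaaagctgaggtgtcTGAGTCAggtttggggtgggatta

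Counted from the start, with the base before it as -1, the match lay at -55 to -50 in Fcgr1 and at -6 to -1 in Fcgr3. Mrc1 held 3 matches, at -180 to -175, -167 to -162 and -35 to -30. Cd68 held 2 copies of the AP-1 letters, at -149 to -143 and -24 to -18, and its GAGGAA lay outside the stretch shown, at -225 to -220. In Fcgr1 and Fcgr3 the match sits in the same 10 bases, TTCCTTCCTC, their longest shared stretch, which was looked for after the sequences had been seen and is in 0.402% of the 32851 promoters (132).

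Within a library, the other genes can be set against Csf1r. The log2 ratio of Fcgr3 to Csf1r was -4.90, -5.01 and -4.35 in controls and -2.80, -1.43 and -1.15 in knockouts, a difference of 2.96. That of Csf1 moved least of the 8 genes called, from -2.51, -2.71 and -2.13 to -1.28, -1.29 and -0.07, a difference of 1.57. For Cd163 the groups all but touched, with the highest control at -5.76 and knockout 1 at -5.67. For all 8 genes the knockouts were above the controls in this ratio, with differences of 1.57 to 2.96, and the exact two-sided permutation p was 0.1 for each (0.112 adjusted over 9 ratios), the smallest that 3 against 3 libraries can give. For Marco, on 0 to 5 counts, the difference is set by the prior count: it was 0.79 with a prior of 2 (exact p = 0.3) and 1.82 with a prior of 0.5.

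**Figure D3:**
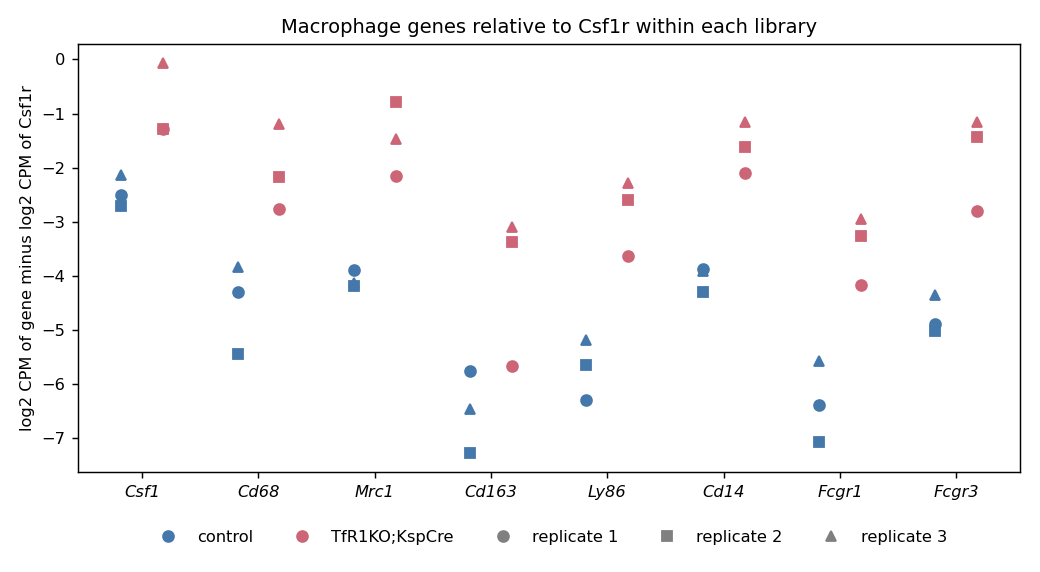
Each point is 1 library, and the vertical axis gives the log2 CPM of a gene minus the log2 CPM of Csf1r in the same library. For all 8 genes the 3 knockouts lie above the 3 controls, by a wide gap for Fcgr3 and a narrow one for Cd163.

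The genes whose levels most resembled those of Csf1r over the 6 libraries were Ly6d, Capn13, Upk1a, Fat2 and Upk1b, with Pearson's r of 0.98 to 0.99 in log2 CPM among 11331 genes compared. These r describe 6 libraries of 2 genotypes and lean on knockout 2. Upk1a and Upk1b encode uroplakins of the urothelium, the lining of the renal pelvis and bladder. Upk1a was at 12.5, 15.05 and 5.22 CPM in controls and at 13.4, 134.9 and 1.61 CPM in knockouts. Like Csf1r it was highest in knockout 2 and lowest in knockout 3. None of the 5 passed the test between genotypes, with adjusted p of 0.183 to 0.271 (edgeR).

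Further markers of macrophages moved with the 8 genes. Of 13 tested, 11 rose and 0 fell (median log2 fold change 3.03, or 2.31 with 7 calls without knockout 2). Their summed level went from 309.5 to 378.4 CPM in controls to 1415 to 3671 CPM in knockouts. Knockout 2 had the highest sum, and knockout 3 was at 1768. Cd74 was the largest gene of this sum in every library, at 172, 167 and 206 CPM in controls 1 to 3. In knockouts 1 to 3 Cd74 was at 869, 1622 and 935 CPM. Adgre1, the gene of F4/80, was at 5.62, 4.17 and 3.54 CPM in controls and at 21.9, 93.4 and 22.2 CPM in knockouts (log2 fold change 3.36, SE 0.65, adjusted p = 0.0302, edgeR). Ms4a7 and the lysozyme gene Lyz2 were highest, at 4.31 and 3.99, and the complement genes C1qa, C1qb and C1qc rose by 3.15, 3.03 and 3.19 on the log2 scale. The apoptotic cell receptor Mertk was lowest at -0.34 (adjusted p = 0.235), followed by Cd86 at 2.21 (adjusted p = 0.0569), and neither passed.

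Markers of perivascular resident macrophages were less clear. Of the 8 listed, 5 were tested, with 0 called by edgeR, 3 at an unadjusted p under 0.05, 3 called by DESeq2's Wald test and 0 by limma-voom. With library size alone in the edgeR fit 2 were called, and without knockout 1, where 6 were tested, 4. Lyve1 was at 0.945, 0.529 and 0.720 CPM in controls and at 0.883, 16.0 and 6.13 CPM in knockouts, and did not pass (log2 fold change 3.37, SE 0.96, adjusted p = 0.0541, edgeR). Its lowest knockout was within the control range, which in Cd163 it was not. Cbr2 was at 2.75 (adjusted p = 0.0552) and Pf4 at 1.91 (adjusted p = 0.132). Folr2, another receptor of resident macrophages, overlapped between groups, at 6.62, 4.70 and 11.2 CPM in controls and 5.30, 7.13 and 4.29 CPM in knockouts (log2 fold change -0.43). Vsig4 and Timd4 were at most 0.803 CPM in any library and were not tested.

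Several of the 10 genes are also made by monocytes, dendritic cells and neutrophils, and markers of other leukocytes moved with them. Of 9 pan-leukocyte genes 8 rose, among them Ptprc, the gene of CD45, which was at 12.9, 12.2 and 14.3 CPM in controls and at 36.6, 125.9 and 42.5 CPM in knockouts (log2 fold change 2.38, SE 0.49, adjusted p = 0.0317, edgeR). Of 9 tested monocyte genes 5 rose and 1 fell (Ace, which proximal tubule also makes, log2 fold change -2.10), of 7 dendritic cell genes 5 rose, and of 9 T cell genes 6 rose. The monocyte list summed to 18.8, 19.3 and 33.5 CPM in controls and 79.8, 209 and 166.8 CPM in knockouts without Ace, a split made after the values were seen, and overlapped between groups with it. Without knockout 2 the monocyte, dendritic cell and T cell lists had 0 calls each and the pan-leukocyte list 3. Summed T cell markers went from 6.87 to 9.67 CPM in controls to 26.0 to 77.9 CPM in knockouts. In B cell markers 1 of 6 tested rose, the kinase gene Blk. Some of these genes passed the filter through the knockouts alone, among them Blk with 7, 5 and 7 control counts: with at least 10 counts asked of every library, 4 monocyte genes (against 6), 2 T cell, 3 dendritic cell and 0 B cell genes were called, and limma-voom called 0 B cell genes. Of the 6 B cell genes 5 had an unadjusted p under 0.05, and 4 were called by DESeq2's Wald test, 4 with library size alone and 5 without knockout 1. Of the 10 neutrophil markers 4 were tested and 0 called by edgeR (0 at an unadjusted p under 0.05) and by DESeq2's Wald test (2 at an unadjusted p under 0.05), and 2 were called by edgeR without knockout 1. Ly6g was at or below 0.153 CPM in every library, and the neutrophil list summed to 5.32 to 10.5 CPM in controls and 5.79 to 22.3 CPM in knockouts. The 5 mast cell markers tested and the 2 NK cell markers tested gave 0 calls each by edgeR, with 0 and 1 at an unadjusted p under 0.05 and 0 and 1 called by DESeq2's Wald test. In edgeR fits 1 NK cell marker was called with upper quartile scaling, library size alone or the newer quasi-likelihood version, and 2 of 3 tested without knockout 1. The part of these cells in the rises of the 8 genes was not tested.

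**Figure D4:**
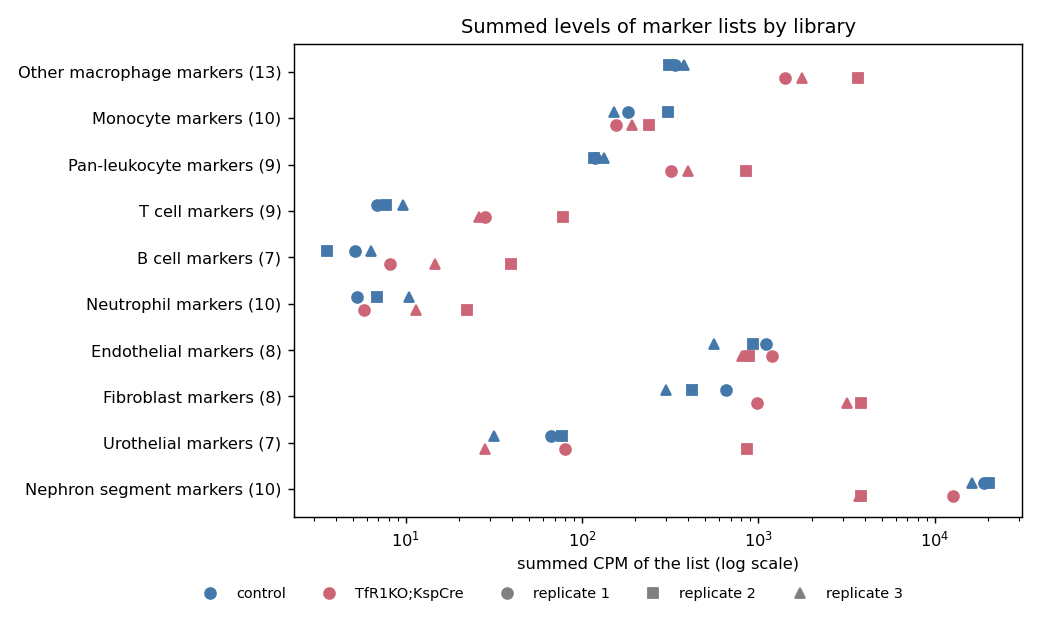
The horizontal log axis gives the summed CPM of all genes of a marker list in 1 library, with the number of genes in brackets, for 3 controls in blue and 3 knockouts in red. Macrophage, leukocyte, T cell and fibroblast sums lie higher in the knockouts, endothelial sums and the monocyte sums, which are mostly Ace in controls, overlap, and nephron sums lie lower. Cd74 is the largest gene of the macrophage sums in every library.

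Among markers of cells that are not leukocytes, fibroblast genes rose in 3 of 8 (Col1a1, Col1a2 and Col3a1, log2 fold changes 3.52, 2.59 and 3.36), with 7 calls by DESeq2's Wald test and also without knockout 1, and 0 without knockout 2. Their sum went from 300.8 to 653.3 CPM in controls to 982.5 to 3798 CPM in knockouts. Nephron segment genes fell in 2 of 10, Lrp2 and Slc34a1, with 4 calls without knockout 1, 0 without knockout 2 and 1 by the newer quasi-likelihood version. Their sum went from 16170 to 20390 CPM down to 3712 to 12640 CPM, with knockout 1 the highest of the knockouts. The thick ascending limb markers Umod and Slc12a1 were at -1.53 and -1.46 on the log2 scale. Neither passed (adjusted p of 0.291 and 0.222, edgeR). Umod was at 1999 to 5328 CPM in controls and at 3444, 422.8 and 258.6 CPM in knockouts 1 to 3. Endothelial markers gave 0 calls among 8 by edgeR (2 at an unadjusted p under 0.05) and 1 by DESeq2's Wald test. With library size alone in the edgeR fit 2 were called. The median log2 fold change of these markers was 0.01. Of 6 red cell markers 2 were tested with 0 calls by edgeR (1 at an unadjusted p under 0.05). There was 1 call by DESeq2's Wald test and 1 by edgeR without knockout 1. The 3 globin genes listed, Hba-a1, Hbb-b1 and Hbb-b2, had 0 counts in every library. The part of the lower nephron transcripts and of the higher fibroblast transcripts in the rises of the 8 genes was not tested.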

How the data were processed

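The deposited values were raw counts per gene in 1 table per genotype, made by the authors with no normalization. Per the labels and the methods of the study, bases were called with CASAVA 1.8.2, reads trimmed with Trimmomatic and aligned to mm9 with TopHat2 2.0.11, and uniquely mapped reads counted with HTSeq. Which annotation and strand option HTSeq was given is not given in the sources used here, so overlapping genes are uncertain. Reads common to near-identical genes were lost to both by unique mapping. The labels give the age as postnatal day 60, whereas the text of the study ties its RNA sequencing to an earlier age; the label was used. Groups and replicate numbers came from the sample titles. The study describes its RNA sequencing as separate mice with littermate controls, without tying the libraries to litters. The count tables hold the same 24422 genes, 4664 of them at 0 throughout.

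Counts were analysed with edgeR 4.0.16, limma 3.58.1 and R 4.3.3. Genes kept by filterByExpr (minimum count 10, minimum total 15) numbered 15171. TMM normalization and the quasi-likelihood test on genotype over 6 libraries were used, with Benjamini-Hochberg adjustment over all genes tested and calls at an adjusted p under 0.05. The SE of a log2 fold change is its absolute value over the square root of F. CPM are TMM-normalised, and log2 CPM used a prior count of 2. Counts carry no molecular identifiers, so intervals cover counting error only. The fit was tested on simulated data. DESeq2 1.42.0, the tool the study names, was among the alternatives, with limma-voom, other scalings, filters, thresholds and covariates, a replicate block and leaving out each library.

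The genes and lists were chosen with earlier results of these data known. Named genes are the 10, their 12 partners or markers, the 2 highest and 2 lowest log2 fold changes of the first 6 lists, the 5 genes most like Csf1r (mean log2 CPM of at least 3) and markers of other cells. A few list members (Ace, Blk, Tlr6, Ticam2, Vsig4, Timd4, Ly6g, Slc34a1, Cd74, Umod, Slc12a1, the collagens and C1q genes) were chosen after their values were seen. Gene positions and exon lengths are from GENCODE M1 on mm9, which 20791 gene names matched, and promoters from RefSeq on GRCm38.p6. A gene that this rule selects is not reported here. Promoters of Csf1r and Cd14 are not analysed here.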

Additional observations from a re-analysis of the deposited data

How the results depend on the processing

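Of 153 alternative values of the log2 fold changes of the 9 tested macrophage genes, 95 kept direction and side of the threshold, 57 lost the call, 0 gained one and 1 reversed, Csf1r, which ranged from -0.25 without knockout 2 to 0.57 without knockout 3. Of the 8 genes called, 5 were called by limma-voom (Csf1, Cd68, Ly86, Fcgr1, Cd14), and 0 with the replicate block, with the covariate of sex-linked transcripts or at an adjusted p under 0.01. Leaving out each library gave 0 to 8 calls. The 2612 calls over all genes became 4882 by DESeq2's Wald test, 0 with the replicate block (5432 at an unadjusted p under 0.05), 0 with the covariate (4221) and 0 at an adjusted p under 0.01, and 0 to 5332 when 1 library was left out. Same-numbered libraries deviated together with correlations of -0.13, 0.01 and 0.21. So few values cannot show whether these libraries were paired. Scaling by library size without TMM gave 3647 calls, 81.8% of them higher against 61.4%, and moved the median of all genes up by 0.27. Other scalings, filters and the newer quasi-likelihood version left all 8 genes called. Marco was left out by the filter on low counts and was not called in the fit without that filter. Its ratio to Csf1r went from 0.79 to 1.82 with a prior count of 0.5.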

Other observations

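Csf1r was the 1 gene of the 10 with an abundant level in control kidney and no call. Like most of the urothelial markers it was highest in knockout 2 and lowest in knockout 3. A list of 7 urothelial markers, added after the data had been seen, summed to 66.9, 77.0 and 31.7 CPM in controls 1 to 3 and to 79.8, 860.6 and 28.2 CPM in knockouts 1 to 3. Krt5, a keratin of basal urothelium, was at 7.16, 10.2 and 3.24 CPM in controls and at 12.3, 346.7 and 0.230 CPM in knockouts. Of the 7 markers 1 was called, Krt20 (log2 fold change 2.19, adjusted p = 0.0489, edgeR). The list had 0 calls without any 1 control, without knockout 2 or without knockout 3. It had 1 call without knockout 1, by limma-voom or by DESeq2's Wald test. The part of urothelium in the Csf1r values was not tested.

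Set against Adgre1 in place of Csf1r, a choice made after the data had been seen, 7 of the genes had small differences between the group means. The difference between knockouts and controls in this log2 ratio was -0.45 for Cd14, -0.41 for Cd163, -0.37 for Cd68, -0.25 for Mrc1, 0.01 for Ly86, 0.03 for Fcgr1 and 0.10 for Fcgr3. Csf1 was at -1.29 and Csf1r at -2.85. Single libraries varied widely: the ratio of Cd163 to Adgre1 was -3.41, -2.22 and -1.41 in knockouts 1 to 3, and that of Cd14 was 0.33 to 0.77 in controls and -0.47 in knockout 2. Set against Ptprc, the same 7 genes were at 0.42 to 0.97, Csf1 at -0.43 and Csf1r at -1.99. Marco, on 0 to 5 counts, is left out, since its ratio is set by the prior count. These are descriptions with 3 libraries per group and no test.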
